A study of Mus musculus with 8 samples.

Results

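Immediate early and heat shock genes are described here across sorted cell types of the newborn mouse inner ear. The list holds 10 genes, taken by symbol from a table of 15275 genes: Fos, Fosb, Jun, Junb and Atf3, Egr1, Ier2, Dusp1, and the chaperone genes Hspa1a and Hspa1b. All 10 were in the table, and all lay above its lowest value in every library. They were listed because such genes respond when tissue is taken apart, and it was already known that their values differed between cochlear and vestibular endothelium, so that pair is described without a test.

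The data were 8 mRNA-seq libraries, made from the cochlea, the organ of hearing, and from the vestibular organs, which sense balance. Each organ gave 1 library of vascular endothelium, 1 of neurons, 1 of mesenchyme and 1 of epithelial cells. The mice were newborns of the ICR strain, placed at postnatal day 0 by the labels, with no genetic change and no treatment named for any group. All groups went through the same preparation, in which inner ears were made into single-cell suspensions, stained with antibodies against the surface proteins CD326 (encoded by Epcam), CD49f and CD34, and sorted. No library came from undissociated tissue, so the level of these genes before dissociation was not measured. Whether a library came from 1 animal or a pool is not stated in the sources used here. The 4 cell types are therefore sorted fractions, each observed once in either organ.

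Values are a signal per gene, which the authors had scaled to 1 common distribution over the 8 libraries, from a lowest value of 20 through a median of 374.4 to a highest of 203006.1. Depth is thus unknown, no counting error can be given, and a value states a gene's position in its library. The scaling was not stated to divide by gene length, so each gene was compared across libraries and not with other genes. In bulk RNA of this kind, fewer cells of a type and less RNA per cell cannot be told apart.

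Immediate early genes are switched on within minutes of a stimulus by transcription factors already present in the cell, without new protein synthesis. Calcium, cyclic AMP and MAP kinase signals reach them through factors such as CREB, SRF and the ternary complex factors, and several of their products feed back on the same kinases. Heat shock genes answer unfolded protein through the heat shock factor HSF1. Enzymatic and mechanical dissociation is widely known to raise both groups in cells taken from solid tissue, the inner ear among them.

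Sequence upstream of 4 of the genes is shown because their values moved farthest between the endothelial libraries or went against the rest, with windows of 250 bases before the annotated start taken from RefSeq on GRCm38.p6. The table of promoters matched 8 of the 10 genes; Egr1 and Ier2 are named only. Hspa1a, at chr17:34972157-34972406 on the minus strand, carries in capitals a match to GAANNTTC, a pair of facing half-sites of the heat shock element.
Hspa1a: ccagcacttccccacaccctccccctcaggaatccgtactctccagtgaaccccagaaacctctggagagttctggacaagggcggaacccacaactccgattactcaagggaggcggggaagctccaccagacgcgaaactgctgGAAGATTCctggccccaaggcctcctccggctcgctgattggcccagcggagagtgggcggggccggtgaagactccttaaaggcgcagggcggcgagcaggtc
Hspa1b, at chr17:34959239-34959488 on the minus strand, is printed beside it to show how alike the windows of the pair are.
Hspa1b: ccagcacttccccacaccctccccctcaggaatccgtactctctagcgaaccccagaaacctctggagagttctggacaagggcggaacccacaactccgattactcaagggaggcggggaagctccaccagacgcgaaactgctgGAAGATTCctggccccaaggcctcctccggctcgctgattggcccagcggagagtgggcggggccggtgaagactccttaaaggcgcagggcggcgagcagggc
Both hold GAAGATTC, which begins 104 bases before the start. From Hspa1a to Hspa1b the windows differed by C44T, T47C and T249G, with positions counted from 1 at the 5′ end of the window, an identity of 98.8% over 250 bases. Junb, at chr8:84978749-84978998 on the minus strand, has in capitals the cyclic AMP response element half-site TGACG.
Junb: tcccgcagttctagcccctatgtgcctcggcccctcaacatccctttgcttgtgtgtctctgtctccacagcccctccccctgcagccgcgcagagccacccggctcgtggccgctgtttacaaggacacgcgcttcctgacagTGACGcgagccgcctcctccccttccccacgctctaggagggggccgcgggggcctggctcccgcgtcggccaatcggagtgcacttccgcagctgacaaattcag
Dusp1, at chr17:26508473-26508722 on the minus strand, has the same half-site in capitals, once as part of the full palindrome TGACGTCA.
Dusp1: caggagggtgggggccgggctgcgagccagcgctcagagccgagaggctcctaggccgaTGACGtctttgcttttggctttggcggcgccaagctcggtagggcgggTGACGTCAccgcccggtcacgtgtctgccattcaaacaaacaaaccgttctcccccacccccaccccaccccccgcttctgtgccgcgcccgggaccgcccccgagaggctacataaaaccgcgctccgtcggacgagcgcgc

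Letters were searched on both strands of the windows of the 8 genes and of 32851 promoter windows of the same length. GAANNTTC was found in 3 of the 8 genes, Jun, Hspa1a and Hspa1b, and in 6.69% of all windows. TGACG was found in 5 of 8, Fos, Fosb, Junb, Atf3 and Dusp1, against 17.8% of all windows, and its longer form TGACGT, which overlaps it, in 3 of 8 against 6.47%. The GC box GGGCGG was found in 7 of 8 against 32.7%, and CCAAT in 4 of 8 against 33.8%. No window of the 8 held TTCNNGAA, the AP-1 site TGANTCA or the CArG box bound by SRF. These were rare in all windows too, at 7.17%, 6.75% and 1.47%. A match is a string of letters and was not tested for binding.

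Fos and Fosb encode partners of Jun proteins in AP-1, the dimeric factor named for this family. Fos (chr12:85473890-85477273, plus strand) had 29938.0 in the cochlear library of epithelial cells, 36220.4 in that of mesenchyme, 52166.4 in that of neurons and 34419.3 in that of endothelium, and in the same order vestibular values of 55018.0, 41508.5, 36220.4 and 25534.1. It was far above the library median everywhere, with only a 2.15-fold range. Fosb (chr7:19302696-19310051, minus strand) had 20578.8, 18734.6, 21677.8 and 6450.5 in the cochlear libraries and 29938.0, 21921.4, 18473.4 and 4449.1 in the vestibular ones. Both endothelial libraries lay below the other 6, which did not overlap with them.

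Jun, Junb and Atf3 complete the AP-1 genes of the list. Jun (chr4:95049034-95052222, minus strand), the main partner of Fos proteins, had 23213.1, 24900.0, 31913.9 and 23149.1 in cochlear epithelial cells, mesenchyme, neurons and endothelium, and 25534.1, 27889.0, 19520.6 and 9245.3 in the vestibular libraries. The vestibular endothelium stood alone at the low end. Junb (chr8:84974484-84978718, minus strand), a Jun protein that often restrains Jun, had 6769.0, 9822.8, 5526.8 and 15905.5 in the cochlear libraries and 12977.4, 12716.3, 2559.0 and 1920.9 in the vestibular ones. Its highest and lowest values were the 2 endothelial libraries, 8.28-fold apart. Atf3 (chr1:191170296-191218039, minus strand), a stress-induced factor of the ATF/CREB family that pairs with Jun proteins, had 4320.6, 3138.1, 1237.5 and 5635.0 in the cochlear libraries and 6810.9, 5791.0, 3302.5 and 3560.5 in the vestibular ones. Cochlear neurons were lowest for Atf3, 2.54-fold below the next library.

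Egr1 and Ier2 encode nuclear proteins outside AP-1. Egr1 (chr18:34859823-34864984, plus strand), a zinc finger transcription factor induced through SRF, had 27502.9, 41508.5, 25241.9 and 12716.3 in cochlear epithelial cells, mesenchyme, neurons and endothelium, and 37391.9, 30365.8, 38939.3 and 24260.8 in the vestibular libraries. Here the cochlear endothelium was lowest, 1.91-fold below the vestibular endothelium. Ier2 (chr8:84661331-84662852, minus strand), a small nuclear regulator, had 6263.6, 8045.1, 5091.4 and 8757.4 in the cochlear libraries and 8821.3, 8979.4, 2092.1 and 2137.6 in the vestibular ones. Vestibular neurons and vestibular endothelium were both low for Ier2, at least 2.38-fold below every other library.

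Dusp1 (chr17:26505590-26562128, minus strand) encodes a phosphatase that switches off MAP kinases, which are among the signals that induce immediate early genes. It had 5011.5, 4319.5, 2720.1 and 8593.5 in cochlear epithelial cells, mesenchyme, neurons and endothelium, and 7855.9, 7223.3, 10046.8 and 14953.3 in the vestibular libraries. The vestibular library was the higher one in all 4 cell types, and the vestibular endothelium was highest of all.

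Hspa1a and Hspa1b encode the stress-inducible HSP70 chaperones. Hspa1a (chr17:34969190-34972156, minus strand) had 253.1, 274.0, 2347.0 and 10936.6 in cochlear epithelial cells, mesenchyme, neurons and endothelium, and 642.9, 554.3, 1840.0 and 653.5 in the vestibular libraries. Hspa1b (chr17:34956436-34959238, minus strand) had 308.4, 297.9, 2666.9 and 11975.4 in the cochlear libraries and 693.4, 522.3, 1761.8 and 644.0 in the vestibular ones. For both, the cochlear endothelium stood above all other libraries, 4.66-fold over cochlear neurons, the next highest, for Hspa1a and 4.49-fold for Hspa1b. Their whole ranges, 43.21-fold and 40.2-fold, were the widest of the list. Vestibular endothelium lay close to vestibular epithelial cells and mesenchyme.

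The 2 HSP70 genes are near-copies, with coding lengths of 1926 and 1929 bases. Of the windows of 50 bases in each transcript, 58.8% of those of Hspa1a were found in Hspa1b and 62.3% of those of Hspa1b in Hspa1a. How reads that match both were counted is not stated in the sources used here, so the split between the genes is uncertain and they cannot be taken as independent observations. The ratio of Hspa1a to Hspa1b stayed between 0.82 and 1.06 over the 8 libraries. Their sum does not depend on how reads were divided between the 2 genes, provided that each was counted once, and it was 17.66-fold higher in cochlear than in vestibular endothelium.

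**Figure D1:**
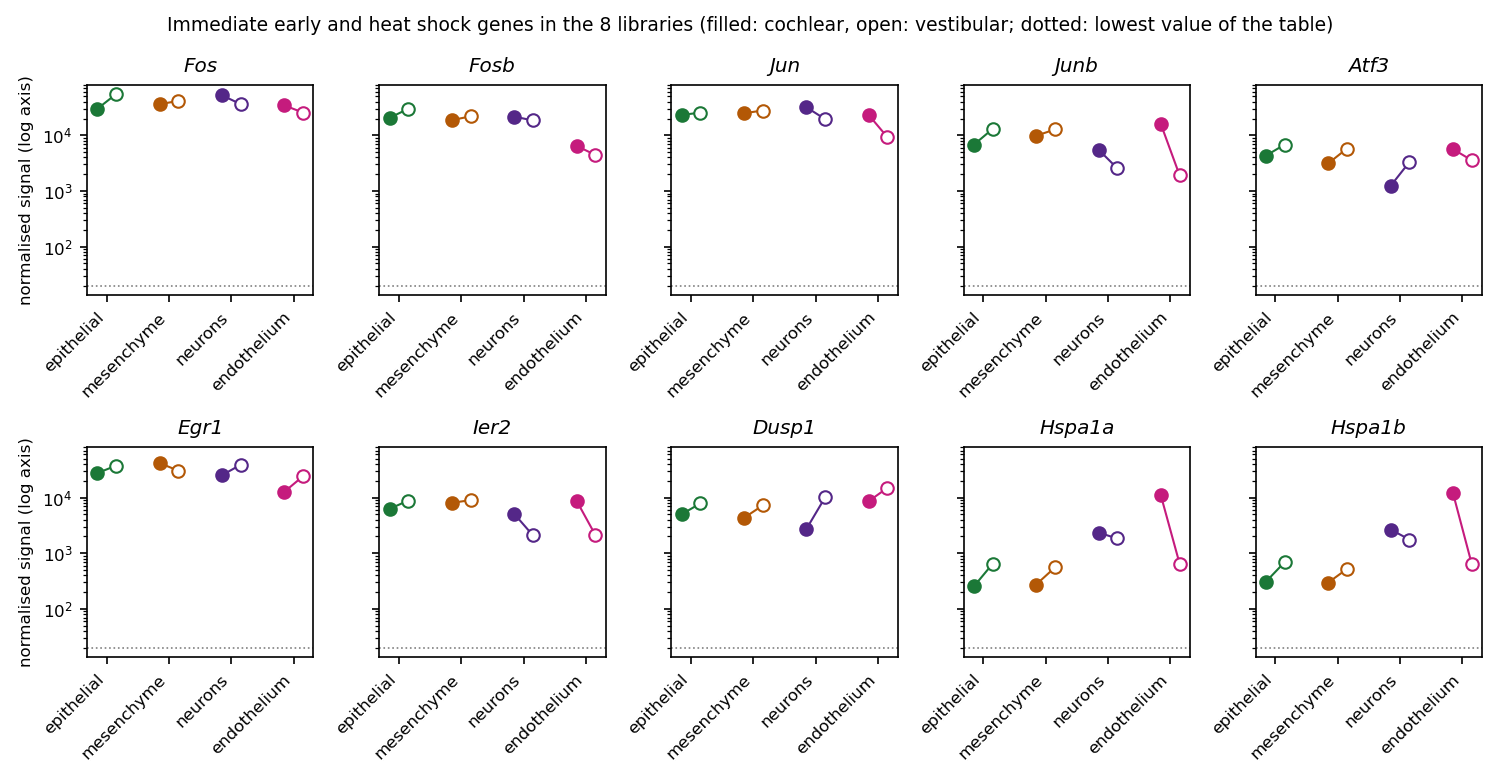
Normalised signal (log axis) of the 10 genes in each cell type, with the cochlear library filled, the vestibular library open and a line joining the pair; every point is 1 library and the dotted line marks the lowest value of the table, 20. Hspa1a and Hspa1b span from 253.1 to 11975.4 with the cochlear endothelium on top, while Fos spans only 2.15-fold.

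No library had a replicate, so the order of the libraries was read against the residual standard deviation of a model with a term for cell type and one for organ, on the log2(value + 1) scale. Of the 70 steps between neighbouring libraries, 12 were larger than this deviation for their gene, and neighbours in the other steps do not differ beyond the spread. The deviation is that of 1 library, and a difference of 2 libraries spreads more widely, so a larger step is a description and no test. Steps between the 2 endothelial libraries, as in Fosb and Egr1, are also part of the deviation itself. For Fos, with a deviation of 0.46, no step was larger. Fosb, with 0.34, had 3 such steps, the largest of them 2.86-fold, between vestibular neurons and cochlear endothelium. Dusp1, with 0.41, also had 3. In Hspa1a, with 1.75, the step from cochlear endothelium down to cochlear neurons was the 1 that passed, and the same was true of Hspa1b. Junb had none, at a deviation of 1.26, because the gap between its endothelial libraries is itself part of that spread.

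Whether a gene of the list marked 1 cell type was tested with limma over all 15275 genes, with each cell type set against the mean of the other 3, the organ as a term and Benjamini-Hochberg adjustment at 0.05. The cochlear and vestibular libraries of a cell type stand in for replicates there, with 3 residual degrees of freedom. In vascular endothelium 1 of the 10 genes was called, against 11.1% of all genes, or 5.14% in the lower direction. This gene was Fosb, which was lower by -2.01 on the log2 scale (SE 0.35, 4.03-fold, limma adjusted p = 0.0357, n = 8 libraries). The call was lost when any 1 library was left out, with estimates between -2.37 and -1.65. Each such fit leaves 1 library of a cell type, so no p is given.

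Dusp1 was estimated 2-fold higher in endothelium (SE 0.32 on the log2 scale) and did not pass, with a limma p of 0.0296 before adjustment and 0.121 after. Hspa1a was estimated at 1.95 (SE 1.16, limma adjusted p = 0.334) and Hspa1b at 1.92 (SE 1.15, limma adjusted p = 0.338). These 2 estimates rested on the cochlear endothelium: without it they were -0.41 and -0.42. Without the vestibular endothelium they were 4.32 and 4.26. That fit leaves 1 endothelial library, with no spread within endothelium, so no p is given. Egr1, Jun, Fos, Ier2 and Junb were estimated at -0.91, -0.78, -0.46, -0.45 and -0.41, none of which passed, and Atf3 at 0.31.

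In epithelial cells limma called 0 of the 10 genes, against 13.9% of all genes, with 1 gene at an unadjusted p under 0.05. That was Fosb, at 0.94 (SE 0.35, limma adjusted p = 0.159). In neurons it called 0 of 10 against 3.36%, with 1 gene at an unadjusted p under 0.05, Atf3 at -1.22 (SE 0.43, limma adjusted p = 0.221). In mesenchyme it called 0 of 10 against 3.33%, with 0 at an unadjusted p under 0.05. Between the organs limma called 0 of the 10 genes and 0% of all genes, with 1 of the 10 at an unadjusted p under 0.05. It was Dusp1, at 1.02 vestibular against cochlear (SE 0.28, limma adjusted p = 0.627), whose vestibular value was the higher in 4 of 4 cell types.

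**Figure D2:**
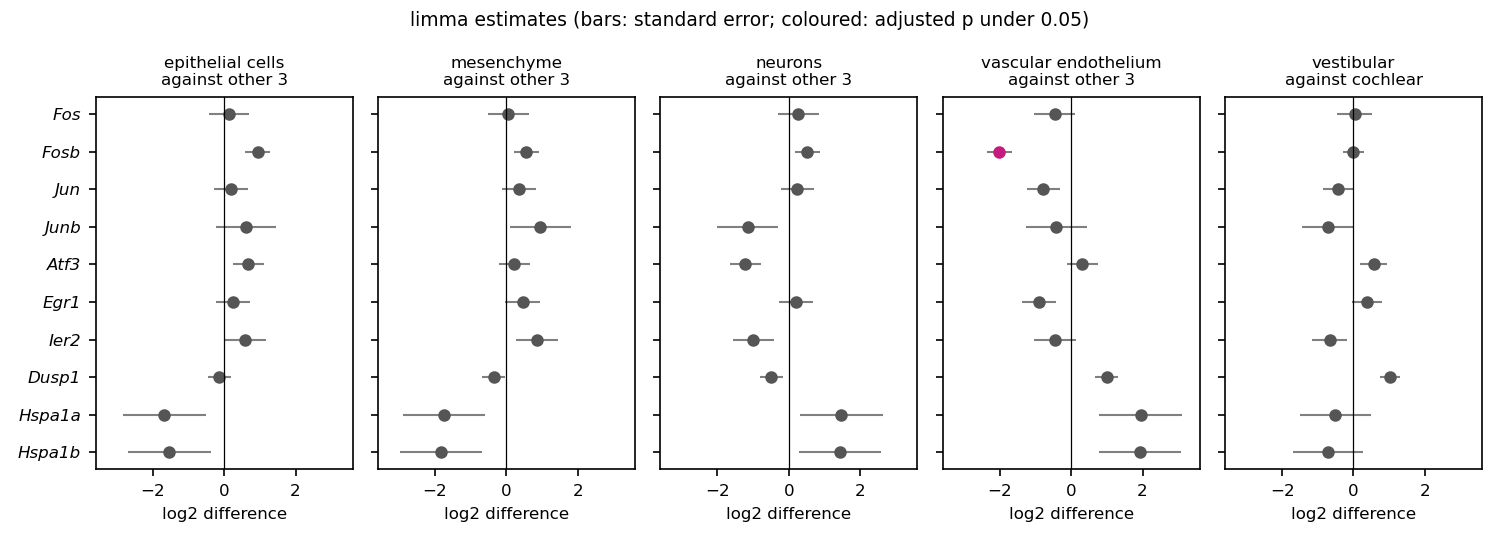
Estimated log2 difference of each of the 10 genes in the 5 comparisons of the limma model, with bars of 1 standard error; each panel is 1 comparison over the 8 libraries and colour marks an adjusted p under 0.05. The estimate of Fosb in vascular endothelium, -2.01, is the only coloured point, and the widest bars belong to Hspa1a and Hspa1b.

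Between cochlear and vestibular endothelium the heat shock genes and part of the immediate early genes were lower in the vestibular library, while Egr1 and Dusp1 were higher. Each side is 1 library, so the ratios carry no replicate check, and since this pair was known when the genes were listed they are given as description. Hspa1b was 18.6-fold lower (-4.22 on the log2 scale) and Hspa1a 16.74-fold lower (-4.06). Only 9 and 10 genes of all 15275 had a lower ratio than Hspa1b and Hspa1a.

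Junb was 8.28-fold lower (-3.05), with 78 genes of the table below it, Ier2 4.1-fold lower (-2.03) and Jun 2.5-fold lower (-1.32). These AP-1 and nuclear factors were lower too, but over all 8 libraries the Pearson correlation of Hspa1a was only 0.10 with Junb, -0.06 with Ier2 and 0.09 with Jun. Atf3 (-0.66), Fosb (-0.54) and Fos (-0.43) were less than 2-fold lower. Egr1, in contrast, was 1.908-fold higher (0.93) and Dusp1 1.74-fold higher (0.80). In all, 8 of the 10 were lower and 2 higher, at a median of -0.99 where that of all genes was 0.0. At least 2-fold lower were 5 of the 10, beside 19.8% of all genes. At 4-fold it was 4 of 10, beside 4.07% of all genes. Both counts hold Hspa1a and Hspa1b, near-copies that cannot be taken as independent.

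The 2 endothelial libraries differed widely in other ways. In this pair 38.7% of all genes were at least 2-fold apart, against 11% in epithelial cells, 10.2% in mesenchyme and 24.5% in neurons. Over all genes the Spearman correlation of the endothelial pair was 0.877, below the 0.888 of vestibular endothelium with vestibular neurons, while the other same-type pairs reached 0.922 to 0.965. Every one of 17 endothelial markers, Pecam1 and Kdr among them, was still highest in vestibular endothelium among the vestibular libraries, and 16 of 17 in cochlear endothelium among the cochlear ones.

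Transcript base composition moved with the endothelial ratios. Over 13209 genes that reached a value of 100 in some library, the Pearson correlation of the log2 ratio with transcript GC content was -0.58 for endothelium, -0.39 for neurons, 0.19 for epithelial cells and 0.11 for mesenchyme. The genes share the same 2 libraries, so this is a description. In endothelium the median log2 ratio ran from 1.33 in the GC decile from 32.2% to 42.0% to -1.14 in that from 58.3% to 76.3%. All 10 listed genes lay above the median GC of all genes, 50.4%, with a median of 56.6% and a range from 51.9% for Fos to 62.6% for Junb.

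Set against the median of about 660 genes in the same of 20 GC bins, Hspa1b remained 9.43-fold lower (-3.24) in vestibular endothelium and Hspa1a 7.85-fold lower (-2.97). Of the genes in its bin, 0.151% were lower than Hspa1b and 0.0% lower than Hspa1a. Junb was then 3.61-fold lower (-1.85), with 3.18% of its bin below it. Ier2 was at -0.84 and Jun at -0.50, both less than 2-fold. The values of Fos, Atf3 and Fosb were -0.10, -0.33 and 0.29, while Egr1 and Dusp1 were at 1.91 and 1.46, 3.76-fold and 2.76-fold above their bins. On this scale 3 of the 10 genes were higher and the median of the list was -0.42, where it was -0.99 as deposited. The part of base composition in each ratio was not tested.

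Markers of other cell types also differed between the endothelial libraries. They were counted at 2-fold, where 18.9% of all genes were higher in the vestibular library and 19.8% lower. Of 16 mesenchymal markers 13 were at least 2-fold higher in the vestibular one and 0 lower, with a summed signal of 35612.3 against 5529.7, led by Otor (10201.0 against 408.0) and Col1a2 (7702.0 against 1242.3). Of 20 epithelial markers 15 were higher and 0 lower, with sums of 6063.5 and 1026.2, led by Epcam (987.1 against 62.9) and Krt18 (663.1 against 62.3). Of 15 glial markers 10 were higher and 2 lower, with sums of 9665.9 and 4129.8. Endothelial markers went the other way, with 10 of 17 lower and 0 higher (sums of 176845.8 and 357853.9), as did those of macrophages, with 9 of 16 lower and 2 higher (1820.0 and 3098.2). At the lowest value of the table were 1 mesenchymal, 2 epithelial and 1 glial marker in the vestibular endothelium, against 3, 4 and 1 in the cochlear one. Hspa1a and Hspa1b had no more than 693.4 in the epithelial and mesenchymal libraries of either organ, beside 653.5 and 644.0 in vestibular endothelium. The part of these markers in the ratios was not tested.

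**Figure D3:**
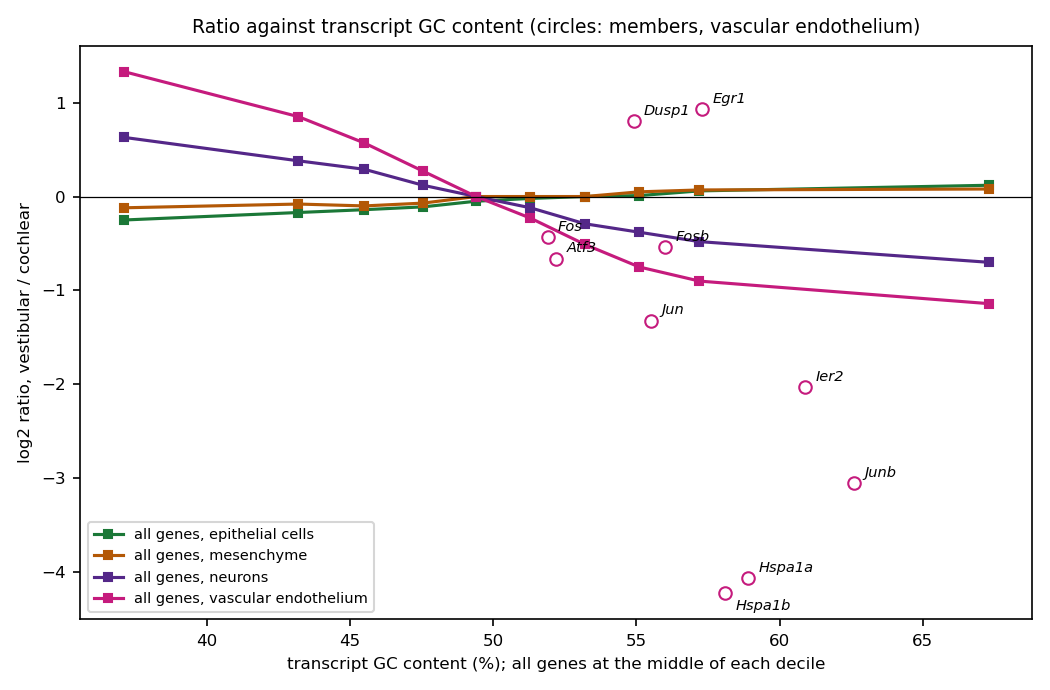
Log2 ratio of the vestibular to the cochlear library against transcript GC content (%); squares joined by lines are the medians of all genes by decile of GC content in each cell type, and circles are the 10 genes in vascular endothelium. The endothelial line falls from 1.33 to -1.14, Fos, Atf3 and Fosb lie near it, Hspa1a, Hspa1b and Junb lie below it, and Egr1 and Dusp1 lie above it.

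Epithelial cells and mesenchyme differed from endothelium in direction. In epithelial cells all 10 genes were higher in the vestibular library, with a median log2 ratio of 0.66 where the median over all genes was -0.01. Past 2-fold were Hspa1a, 2.54-fold higher (1.34), and Hspa1b, 2.248-fold higher (1.17), or 2 of 10, beside 6.49% of all genes in that direction. As near-copies these 2 cannot be taken as independent. Junb (0.94) and Fos (0.88) followed, and Jun (0.14) was nearest to 0.

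In mesenchyme 9 of the 10 were higher in the vestibular library, at a median of 0.30 where that of all genes was 0.0. Egr1 alone was lower (-0.45). Only Hspa1a reached 2-fold, at 2.023-fold (1.02), which is 1 of 10 beside 5.4% of all genes. Atf3 (0.88), Hspa1b (0.81) and Dusp1 (0.74) came next.

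In neurons 3 genes were higher in the vestibular library and 7 lower, with a median of -0.44 where that of all genes was 0.0. All but Atf3, 9 of the 10, had the same direction as in endothelium, but the share of all genes that did so was not counted. Over all genes the ratios of both pairs fell with transcript GC content (Pearson -0.39 in neurons and -0.58 in endothelium). Dusp1 was 3.694-fold higher (1.89) and Atf3 2.669-fold higher (1.42), 2 of 10 beside 12.2% of all genes. Ier2 was 2.43-fold lower (-1.28) and Junb 2.16-fold lower (-1.11), again 2 of 10, beside 12.3%. Egr1 was at 0.63, and Jun, Hspa1b, Fos, Hspa1a and Fosb between -0.71 and -0.23. Against genes of like GC content, 5 of the 10 were higher and the median was 0.10. There Dusp1 was at 2.22, Atf3 at 1.55 and Egr1 at 1.20, and Ier2 and Junb at -0.47 and -0.30.

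The libraries labelled neurons carried markers of glia beside those of neurons. Of 15 glial and Schwann cell markers 14 were highest there in both organs, with summed signals of 215109.5 (cochlear) and 227051.2 (vestibular). Of 17 neuronal markers 10 were highest in the cochlear library of neurons among the cochlear libraries, with 0 at the lowest value of the table, and 4 in the vestibular one among the vestibular libraries, with 4 at the lowest value. Their sums were 9119.6 and 5973.0, and 12 of the 17 were at least 2-fold lower in the vestibular library, beside 12.3% of all genes. Vestibular neurons also had all 17 endothelial markers at least 2-fold above cochlear neurons, beside 12.2% of all genes, with sums of 18418.3 and 2581.9. Of 11 pericyte and smooth muscle markers 7 were at least 2-fold higher in vestibular neurons, beside 12.2% of all genes, and 0 at least 2-fold lower. Rgs5, the highest of them there, had 147259.9 against 6597.8. Notch3 (1546.9 against 1947.1) and Cspg4 (1472.1 against 1595.3) were slightly lower. Markers of other types differed too, where 12.2% of all genes were at least 2-fold higher in vestibular neurons and 12.3% lower. Of 20 epithelial markers 16 were higher and 0 lower (sums of 5218.5 and 933.0). Of 16 mesenchymal markers 8 were higher and 1 lower (sums of 147530.7 and 209866.0). Of 7 erythroid markers 5 were higher and 0 lower, of 16 macrophage markers 5 and 0, and of 14 hair cell markers 3 and 2. The part of these markers in the ratios of Dusp1, Atf3, Ier2 and Junb was not tested.

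**Figure D4:**
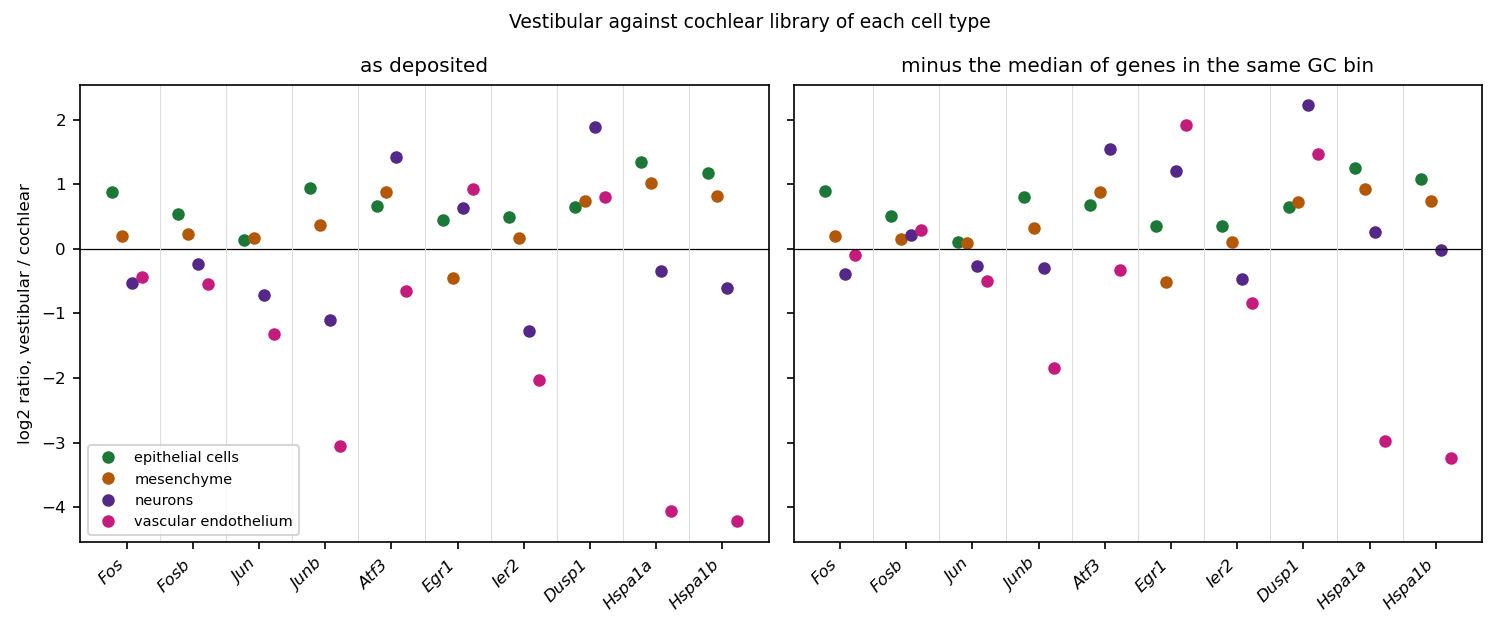
Log2 ratio of the vestibular to the cochlear library of the 10 genes in each cell type, as deposited (left) and after subtraction of the median of genes in the same GC bin (right); each point is 1 pair of libraries, with no error. All 10 epithelial points lie above 0 in both panels, and the endothelial points of Hspa1a and Hspa1b move from -4.06 and -4.22 to -2.97 and -3.24.

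How the genes varied together was described by Pearson correlations of log2 values over the 8 libraries, without a p. Hspa1a and Hspa1b, the near-copies, had 1.0. Junb and Ier2, which lie on the same chromosome and were both low in vestibular neurons and vestibular endothelium, had 0.98. Jun had 0.77 with Fosb and 0.75 with Fos. Opposed were Dusp1 and Jun, at -0.78, and Hspa1b and Egr1, at -0.73. The mean of the 10 genes, each relative to its own mean, was highest in cochlear endothelium (0.74) and lowest in vestibular endothelium (-0.72). The high end was set by Hspa1a and Hspa1b. Over the other 8 genes the mean was 0.05 in cochlear endothelium and highest in vestibular epithelial cells (0.60), followed by vestibular mesenchyme (0.43). In vestibular endothelium it was -0.74, the lowest. The endothelial pair was known to differ when the genes were listed, so its place in these means is description only. Against the mean of the other 9 genes, Junb had a correlation of 0.57, Fos and Jun 0.53, Ier2 0.44, Hspa1b 0.35, Hspa1a 0.34 and Atf3 0.16. Fosb had -0.02, Dusp1 -0.27 and Egr1 -0.49, so the list did not vary as 1 group.

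Among 13345 other genes that reached a value of 100 in some library, those most like the mean of all 10 listed genes over the 8 libraries were 2310067B10Rik (0.955), Adrm1 (0.954), Lmbr1l, Ciz1, Aup1, Zfand2b, Tfe3, U2af1l4, Zfp598 and Tssc4, down to a correlation of 0.908. This likeness rested in part on Hspa1a and Hspa1b, since against the mean of the 8 other listed genes the same genes had correlations of only 0.28 to 0.71. All 10 had a GC content between 54.1% and 60.3%, above the median of all genes. Adrm1, a ubiquitin receptor of the proteasome, had 342.5 in cochlear and 114.5 in vestibular endothelium. For 2310067B10Rik the values were 1923.3 and 1009.5. The mean used for this ranking holds the endothelial pair, known when the genes were listed, so the ranking is description only.

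Other immediate early genes were counted from a list of 51 in the table. In the limma comparison of endothelium with the other cell types 4 were higher and 0 lower, against 11.1% of all genes in either direction. They were Dusp2, a nuclear phosphatase (5.19, SE 0.71), the polo-like kinase gene Plk2 (2.76, SE 0.34), the kinase gene Sgk1 (1.99, SE 0.15) and Klf10, a zinc finger gene induced by TGF-beta (1.06, SE 0.22), with limma adjusted p from 0.0117 to 0.0493. Dusp2 was at the lowest value of the table in cochlear epithelial cells, so its estimate is no exact fold. The median of the 51 genes was 0.43 and that of all genes -0.03, while the 10 listed genes had -0.43.

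Epithelial cells had 5 of the 51 higher and 2 lower, against 13.9% of all genes. Arc, which encodes a cytoskeletal protein of synapses, was 12.7-fold higher (limma adjusted p = 0.00656). The MAP kinase phosphatase gene Dusp5 was 11.9-fold higher, Ctgf, a secreted matrix protein gene, 9.79-fold, the nuclear receptor gene Nr4a3 8.14-fold and the antiproliferative gene Btg2 2.75-fold. Dusp2 and Myc were lower, by 9.85-fold and 5.58-fold. In mesenchyme Arc (5.39-fold) and Sgk1 (4-fold) were lower, against 3.33% of all genes called, and in neurons Dusp5 (3.27-fold), against 3.36%. Between the organs limma called 0 of 51 and 0% of all genes. Of the 51, 6 had an unadjusted limma p under 0.05, and the share of all genes under that limit was not counted.

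Between the endothelial libraries 20 of the 51 were at least 2-fold lower in the vestibular one and 6 higher (19.8% and 18.9% of all genes), with a median of -0.76, or -0.19 against genes of like GC content. In the other pairs most were higher in the vestibular library: 43 of 51 in epithelial cells (median 0.69), 39 in mesenchyme (0.36) and 33 in neurons (0.50). Among the 10 listed genes 3 were higher in vestibular neurons. The median over all genes was -0.01 in epithelial cells, 0.0 in mesenchyme and 0.0 in neurons. Within the endothelial pair Cebpb, a leucine zipper factor, was 8.45-fold lower (341.5 to 40.4), Jund, the remaining Jun gene, 7.78-fold (6801.3 to 874.6), Ier5l 4.61-fold, Ppp1r15a, a stress-induced phosphatase subunit, 4.4-fold and Nfkbia, the inhibitor of NF-kappaB, 4.08-fold. Higher were Egr2, a relative of Egr1, 5.48-fold (337.6 to 1851.3), and Nr4a3, Klf6, Tiparp and Nr4a2, by 3.84, 2.67, 2.3 and 2.26-fold. Cebpb and Jund had a GC content of 67.2% and 67.1%, and against their bins were at -1.88 and -1.76. Egr2 is also a gene of Schwann cells, with 5985.5 and 8641.6 in the libraries of neurons.

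Other heat shock genes filled 37 entries of the table. The limma model called 1 higher and 2 lower in endothelium, against 11.1% of all genes in either direction. Hspa12b, a distant HSP70 relative of endothelial cells, was 9.57-fold higher, while Cryab, a small heat shock protein gene, was 7.19-fold lower. Hspb2, the neighbour of Cryab, was at the lowest value in all endothelial and mesenchymal libraries, called lower in both, and called higher in epithelial cells and neurons. In epithelial cells 4 were higher and 2 lower, against 13.9% of all genes. The other higher ones were Cryab (8.35-fold), Hspa4l (4.51-fold) and Hspa2 (3.18-fold), and Hspa12b and Hmox1 were lower (15.3-fold and 3.51-fold). Hspa12a was higher in neurons (12.4-fold). Limma adjusted p for these calls lay between 0.0126 and 0.0496. Hspa2 and Hspa4l are best known from the testis and Hspa12a from the brain.

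In the endothelial pair 5 of the 37 entries were at least 2-fold lower in the vestibular library and 9 higher, beside 19.8% and 18.9% of all genes, at a median of 0.00. Hspb1, which encodes the small heat shock protein HSP27, was 8.13-fold lower (1600.8 to 196.9), Serpinh1, the collagen chaperone gene, 4.93-fold (23213.1 to 4709.8), and Hspa12b, Hspa1l and Hsp90ab1 between 2.57-fold and 2.14-fold. Against their GC bins Hspb1 was at -1.83 and Serpinh1 at -1.44. Higher were Dnajb4 (5.96-fold), Cryab (4.91-fold), Hspa12a (4.37-fold), Hspa4l (3.72-fold) and Dnaja1 (3.19-fold).

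Upstream regulators, 19 of which were in the table, include the kinases and factors that act on immediate early and heat shock promoters. The limma model called 2 of the 19 higher and 0 lower in endothelium, against 11.1% of all genes in either direction. In epithelial cells it called 1 higher and 1 lower, against 13.9% of all genes. Elk3, a ternary complex factor of endothelial cells, was 11.6-fold higher in endothelium (limma adjusted p = 0.0171) and 10.6-fold lower in epithelial cells (limma adjusted p = 0.0135). The SRF coactivator gene Mkl2 was 7.02-fold higher in endothelium (limma adjusted p = 0.0318), and the kinase gene Map2k1 2.32-fold higher in epithelial cells (limma adjusted p = 0.0153). In the endothelial pair 4 of 19 were at least 2-fold lower in the vestibular library and 6 higher, beside 19.8% and 18.9% of all genes. Lower were Hsf4, by at least 5.52-fold since its vestibular value was the lowest of the table, Map2k2 (4.29-fold), Mapk3 and Srf (2.26-fold each), with Mkl1 next (1.78-fold). Higher were the CREB relative gene Atf1 (5.68-fold), Elk4 (3.03-fold), Hsf2 (2.71-fold), Creb1 (2.67-fold) and Mapk8, which encodes the kinase JNK1 (2.54-fold). Hsf1, the factor behind Hspa1a and Hspa1b, had 1080.4 in cochlear and 844.3 in vestibular endothelium. Srf and Mapk3 were at 0.02 and -0.20 against their GC bins, and Creb1 and Mapk8 at -0.09 and -0.17.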

How the data were processed

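Sorted inner ear cells were profiled by mRNA-seq in 8 libraries, and 10 genes were read from 1 deposited table. Its unit is a signal that the authors had brought to 1 common distribution with a lowest value of 20. Build GRCm38 and TopHat 1.0.0 appear in the submitters' processing notes. How genes were counted, and whether values were divided by length, is not stated in the sources used here. The authors' column of means and their grouping of genes were not used. Depth is unknown, so the precision of a single value cannot be given, and p-values measure only the spread between these libraries.

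Groups came from the labels. The labels and the mRNA-seq methods place the mice at postnatal day 0, while the study's results section gives a later postnatal day, and the labels were followed. The listed genes, the other gene lists and the markers were chosen with earlier results of these data known. GENCODE vM21 gave coordinates and transcript GC content, and matched 15030 of 15275 identifiers. A model with cell type and organ as additive terms was fitted to log2(value + 1) of all genes with limma 3.58.1 in R 4.3.3 with a mean-variance trend, Benjamini-Hochberg adjustment and a threshold of 0.05, after the code was tested on simulated data. Fold changes are on the log2(value + 1) scale and understate those of low genes. Pairs of libraries of 1 cell type were compared by their ratio, counted at 2-fold. For GC content, genes that reached 100 in some library were divided into 20 bins. Tables and plots used Python 3.11.15, numpy 2.4.6, pandas 2.3.3 and matplotlib 3.10.9.

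All 10 genes are named. From the other lists those called in a model comparison and the 5 largest ratios per direction in the endothelial pair are named, with the 10 genes most alike and the 2 highest markers. Alternatives were pseudocounts of 20 and 0.1, subtraction of the lowest value, a filter, median-of-ratios scaling, no trend, no organ term, libraries left out and a fold of 4. A GC adjustment, leaving out vestibular endothelium together with vestibular neurons, and the mean of the list without Hspa1a and Hspa1b were added after the data were examined.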

Additional observations from a re-analysis of the deposited data

Results flagged for a closer look

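The HSP70 genes moved in opposite directions between the organs in different cell types. Hspa1a was more than 2-fold higher in the vestibular library of epithelial cells (log2 ratio 1.34) and of mesenchyme (1.02), and more than 2-fold lower in that of vascular endothelium (-4.06). Hspa1b showed the same in epithelial cells (1.17) and vascular endothelium (-4.22). Each ratio rests on 1 library per side, so the difference between the cell types was not tested, and the 2 genes are near-copies that cannot be taken as independent.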

How the results depend on the processing

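The comparison of the organs is made within cell types by the model itself. No fit with a replicate number as a block was made, since each group has 1 library and the labels give no such numbers. The 1 call in vascular endothelium, that of Fosb, was lost when any 1 library was left out. In each of these 8 fits the lone library of a cell type is assumed to vary like the others. Under the other settings from the start the call of Fosb held, with limma adjusted p from 0.0104 to 0.0458, and with the GC adjustment it was 0.00593. Without vestibular endothelium and vestibular neurons together, the endothelial estimates were 4.32 for Hspa1a, 4.26 for Hspa1b and -1.65 for Fosb. That fit leaves 1 endothelial library, the cochlear one, so no p and no count are given. The cause of the shift was not tested. Of the genes past 2-fold in mesenchyme, the 1 became 0 with a pseudocount of 20 and with the GC adjustment. At 4-fold the counts were 0 in epithelial cells, 0 in mesenchyme and 0 in neurons, by construction of the stricter limit. No value that had been called changed its direction. Unknown depth and the lack of replicates limit all ratios of single libraries. Calls of genes outside the list of 10 were not refitted under these settings.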
